A study of Mus musculus with 3 samples.

Results

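The regions described here are the narrow H3K4me3 peaks of mouse testis that lay in introns and were classed as PRDM9-dependent. A peak is called PRDM9-dependent here only because its centre lay outside the PRDM9-independent regions, and dependence itself was not tested. A member is an autosomal peak whose centre overlapped no PRDM9-independent region, lay inside the body of a protein-coding gene (GENCODE vM21 on mm10, which is GRCm38) but in no exon of any gene, and was more than 1 kb from every protein-coding transcript start. The rule used positions only, and 22673 peaks met it, which is 37.2% of the 60913 autosomal PRDM9-dependent peaks and a part of 101978 narrow peaks in all. The chromatin came from whole adult testis of (C57BL/6J x CAST/Eij)F1 males with the Prdm9 genotype Humanized/CAST, in which 1 allele carries the human zinc fingers and came through the C57BL/6J mother, and the other is the CAST allele of the father. There were 2 ChIP libraries made with an H3K4me3 antibody and 1 input library, all of this single condition, so no treatment or genotype was compared. The labels describe both testes of 1 male, whereas the study's methods describe 1 testis from each of 2 littermates. Under the reading of the labels, the libraries differ by technical spread alone. The tests below take the 19 autosomes as units, and their p-values measure the spread between chromosomes of 1 condition, not between animals.

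PRDM9 is a zinc finger protein of meiotic cells that binds a DNA motif and places trimethyl groups on lysine 4 of histone H3 at the nucleosomes beside it, which marks the site for the double-strand breaks that start recombination. The same mark stands at active promoters without PRDM9, and for that reason peaks shared between mice with unlike Prdm9 alleles were set aside as PRDM9-independent. Introns make up much of the sequence that is transcribed and yet far from promoters, and they are a common location of PRDM9 binding sites. Because whole testis was used, fewer meiotic cells and less mark per cell cannot be told apart.

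The motif of each Prdm9 allele was searched for within 300 bp of every centre on both strands of the reference genome, with the study's matrices for the CAST allele (31 bp) and the humanised allele (48 bp). The letters that hold a probability of at least 0.5 in each matrix, with N elsewhere, show what a hit looks like.
Cast matrix: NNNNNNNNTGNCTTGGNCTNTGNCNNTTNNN
Hum matrix: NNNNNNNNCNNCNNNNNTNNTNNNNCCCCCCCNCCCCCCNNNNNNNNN
A motif was called where the best score passed the limit that 1% of equally long windows 3 kb away passed. The reference is the C57BL/6J genome, so CAST sequence was not searched.

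The 5 most enriched members with a Cast motif only (and with at least 5 input fragments and both ChIP libraries above the input) show how the motif sits in intron sequence. Each stretch is mm10 sequence (the RefSeq copy of GRCm38) centred on the motif, is read along the strand of the motif, and has the 31 bases of the hit in capitals. They lay at chr8:123124750-123124850 (minus strand, in Cpne7), chr2:121567792-121567892 (plus strand, in Frmd5), chr17:5056217-5056317 (plus strand, in Arid1b), chr12:116566090-116566190 (plus strand, in Ptprn2) and chr11:100681109-100681209 (plus strand, in Zfp385c).
Cpne7: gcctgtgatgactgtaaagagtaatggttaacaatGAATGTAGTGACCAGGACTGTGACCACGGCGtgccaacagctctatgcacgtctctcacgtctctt
Frmd5: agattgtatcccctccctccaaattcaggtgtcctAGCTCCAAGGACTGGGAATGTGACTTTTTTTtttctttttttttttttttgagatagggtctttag
Arid1b: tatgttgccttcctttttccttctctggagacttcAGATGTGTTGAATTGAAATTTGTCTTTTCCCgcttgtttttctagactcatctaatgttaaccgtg
Ptprn2: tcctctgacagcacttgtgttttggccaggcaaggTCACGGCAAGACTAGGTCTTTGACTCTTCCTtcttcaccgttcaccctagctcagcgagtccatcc
Zfp385c: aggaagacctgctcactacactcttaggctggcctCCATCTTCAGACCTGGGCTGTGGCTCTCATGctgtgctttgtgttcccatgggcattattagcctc
The hits matched between 10 and 12 of the 14 specified letters of the Cast matrix. The peak centre lay 103 bp from the middle of the motif at Cpne7, 230 bp at Frmd5, 212 bp at Arid1b, 214 bp at Ptprn2 and 74 bp at Zfp385c.

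The 5 most enriched members with a Hum motif only, under the same conditions, were rich in C on the strand of the motif. They lay at chr19:46042113-46042213 (plus strand, in Ldb1), chr1:39464433-39464533 (minus strand, in Tbc1d8), chr10:83090470-83090570 (plus strand, in Chst11), chr7:143380862-143380962 (minus strand, in Kcnq1) and chr12:83431153-83431253 (minus strand, in Dpf3).
Ldb1: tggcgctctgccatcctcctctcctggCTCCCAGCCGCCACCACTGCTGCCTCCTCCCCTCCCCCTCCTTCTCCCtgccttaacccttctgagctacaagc
Tbc1d8: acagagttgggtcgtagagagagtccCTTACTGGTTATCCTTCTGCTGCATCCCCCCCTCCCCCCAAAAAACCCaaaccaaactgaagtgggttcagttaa
Chst11: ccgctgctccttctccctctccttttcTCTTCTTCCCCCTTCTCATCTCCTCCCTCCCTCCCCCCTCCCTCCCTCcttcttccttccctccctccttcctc
Kcnq1: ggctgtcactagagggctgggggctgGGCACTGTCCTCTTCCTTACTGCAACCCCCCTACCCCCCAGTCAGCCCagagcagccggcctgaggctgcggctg
Dpf3: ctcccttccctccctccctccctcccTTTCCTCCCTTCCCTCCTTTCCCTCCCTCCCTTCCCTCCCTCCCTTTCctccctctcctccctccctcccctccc
The capitals mark the 48 bases of the hit, which matched between 13 and 16 of the 17 specified letters of the Hum matrix. The stretch of Dpf3 holds only C and T, and that of Chst11 holds few other letters. The reference masks that of Dpf3 whole (100%) and that of Chst11 almost whole as repeat, against 20.8% of the stretch in Kcnq1. A hit is a description of the letters and does not show that the protein bound there.

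The members were mostly weak peaks that both libraries saw alike. The deposited coverage is the number of fragments over the centre of the peak. Over the members its median was 15 for replicate 1 (5th to 95th percentile 5 to 66.4), 17 for replicate 2 (6 to 76) and 6 for the input library (1 to 15). The fragments at member centres summed to 535102, 618313 and 200570 in these libraries. The deposited enrichment, a ratio over the local background with 0 for none, estimated from both replicates together, had a median of 2.85 with quartiles of 1.67 and 5.28, and it ran from 0.0721 to 147. In all 20098 members (88.6%) had more fragments than the input in both replicates, against 88.0% of all autosomal PRDM9-dependent peaks. A deposited p-value under 1e-10 was given for 68.9% of the members and for 69.5% of all autosomal PRDM9-dependent peaks. On both counts the introns were close to the background.

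After scaling to equal totals the 2 replicates differed by 1.10 times the variance that counting alone gives, and 93.3% of the members agreed within 2-fold. The median of 15 to 17 fragments limits what a single weak member can show, and 8020 members (35.4%) had fewer than 5 input fragments, where the enrichment is imprecise. In 380 members no input fragment was counted. At the other end 42 members had more than 50 input fragments. The most fragments were counted in an intron of Chl1, a neural cell adhesion gene, where the ChIP libraries had 6555 and 7419 and the input library 19534. Both ChIP libraries were below the input there, and the enrichment was 0.204. This peak, named after its values were seen, lay in no broad peak.

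Among members with at least 5 input fragments and both replicates above the input, the 10 most enriched (at most 1 per gene) had more than 100 ChIP fragments in either library against 5 to 8 in the input. The first lay in intron 2 of 7 of Tspan5, a tetraspanin gene, with its centre at chr3:138877346 (plus-strand gene). The ChIP libraries had 266 and 303 fragments there and the input library 7, an enrichment of 38.1. A broad peak of 3000 bp held it, and the nearest exon was 8950 bp away. The second, with 135, 161 and 5 fragments (enrichment 27.7), lay at chr5:121884439 in intron 8 of 22 of Cux2, a homeobox transcription factor gene. This intron was only 673 bp long.

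The next of these members stood in genes of unlike function. Mxra7 held a peak of 134, 144 and 5 fragments in the last of its introns. Arhgef10l held one of 104, 154 and 5, the widest gap between the replicates among the 10. In Eif4e2, a cap-binding translation factor gene, the counts were 151, 158 and 6. In Sv2c, a synaptic vesicle protein gene, they were 141, 168 and 6. The member in Cpne7, a copine gene, and in the overlapping annotation Gm20388 had 161, 180 and 7. In Parp1, whose product binds DNA breaks, the counts were 126, 163 and 6. Asb18 followed with 108, 122 and 5, and Frmd5 with 177, 184 and 8. The enrichments of these 8 ran from 21.1 (Frmd5) to 26.0 (Mxra7), and replicate 2 was the higher in each, as it was over all members. A Cast motif was called at Cpne7 and Frmd5, and no Hum motif at any of the 10.

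**Figure D1:**
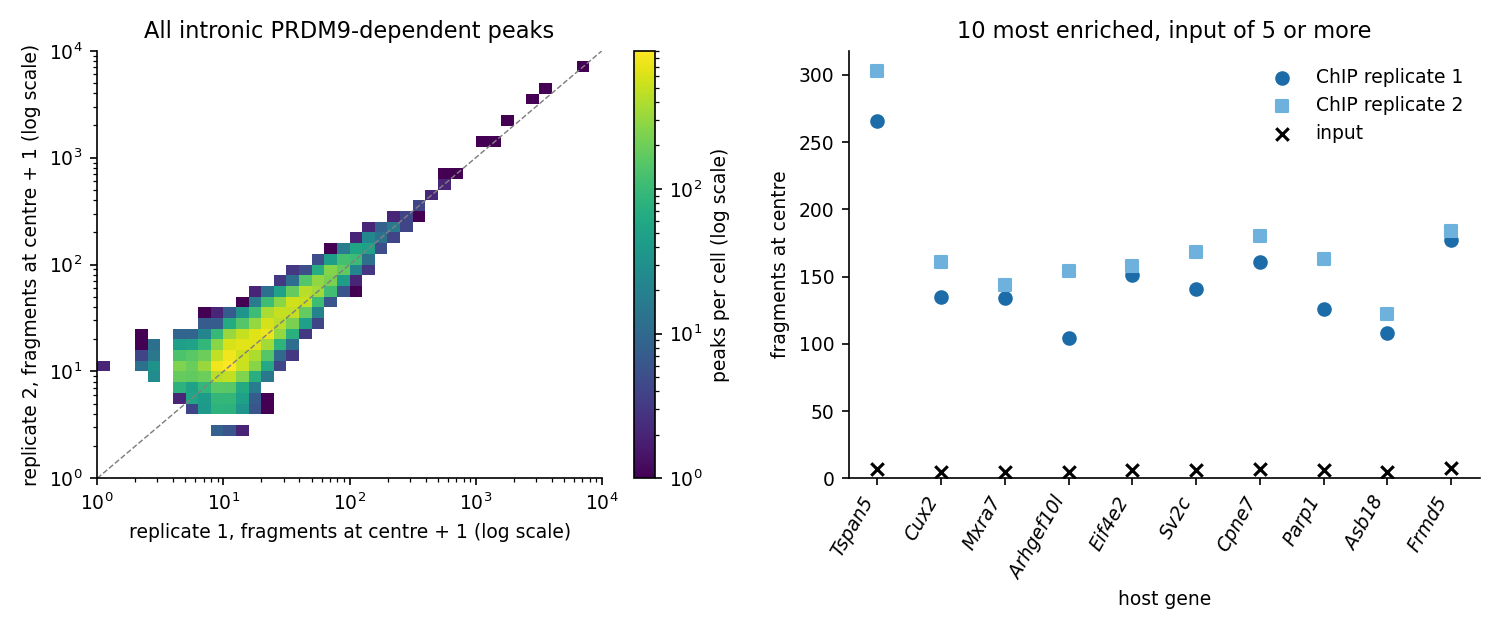
Left, fragments at the centre of every member in ChIP replicate 1 (x axis) and replicate 2 (y axis), with 1 added and on log scales, coloured by the number of peaks per cell. Right, the counts of both replicates and the input for the 10 most enriched members with at least 5 input fragments, where each ChIP count is above 100 and each input count is 8 or fewer.

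Whatever the input, the 3 highest enrichments were 147 in Nsd1, 124 in Prdm15 and 108 in Gfra1. Nsd1 encodes a methyltransferase of lysine 36 of histone H3, and its member in intron 20 of 22 (chr13:55306058) had 80 and 76 ChIP fragments and no input fragment. Prdm15 belongs to the same gene family as Prdm9, and its member in intron 3 of 23 (chr16:97837992) had 66 and 66 against 0. Gfra1 encodes the GDNF receptor of spermatogonial stem cells, and its member in intron 5 of 10 (chr19:58365375) had 98 and 132 against 1. The ChIP counts of these 3 are below those of the member in Tspan5, so their place in the order goes with 0 or 1 input fragments.

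PRDM9-dependent peaks were denser in introns than outside all genes. Eligible introns, meaning bases at which a centre would meet the rule, spanned 836 Mb and held 27.1 members per Mb, and the 1202 Mb outside genes held 26593 PRDM9-dependent peaks. Eligible bases were counted whether or not read pairs can be placed on them. The share that reads cannot reach was not measured in either kind of sequence, which limits this and the other densities given here. Per autosome the density was 23.3 to 31.7 per Mb in introns and 17.9 to 29.7 outside genes. The mean log2 ratio was 0.27 ± 0.14 (SD over 19 autosomes), a 1.21-fold excess, and introns were the denser on 19 of 19 autosomes (exact two-sided Wilcoxon signed-rank test, adjusted p = 1.53e-05, from the smallest raw p that 19 autosomes can give, 3.81e-06). All p-values are adjusted by the Benjamini-Hochberg method over the 12 tests of this report.

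The excess moved with base composition. When the genome was cut into bins of 1 kb and these into 5 classes of G and C content, density rose with GC in both kinds of sequence, but more steeply outside genes. In the class under 36.9% GC the introns held 8.10 peaks per Mb and the sequence outside genes 4.58, with introns denser on 19 autosomes. The next classes gave 14.2 against 8.96 (19 autosomes), 20.5 against 16.6 (17 autosomes) and 31.1 against 30.7 (11 autosomes). Above 46.3% GC the order turned, with 52.1 per Mb in introns and 65.6 outside genes, and introns were denser on 1 autosome only. Standardised over these classes the ratio was gone, with a mean log2 ratio of -0.0018 ± 0.13 over 19 autosomes (exact signed-rank test, adjusted p = 0.98). The difference in density thus depended on GC content in size and in sign.

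**Figure D2:**
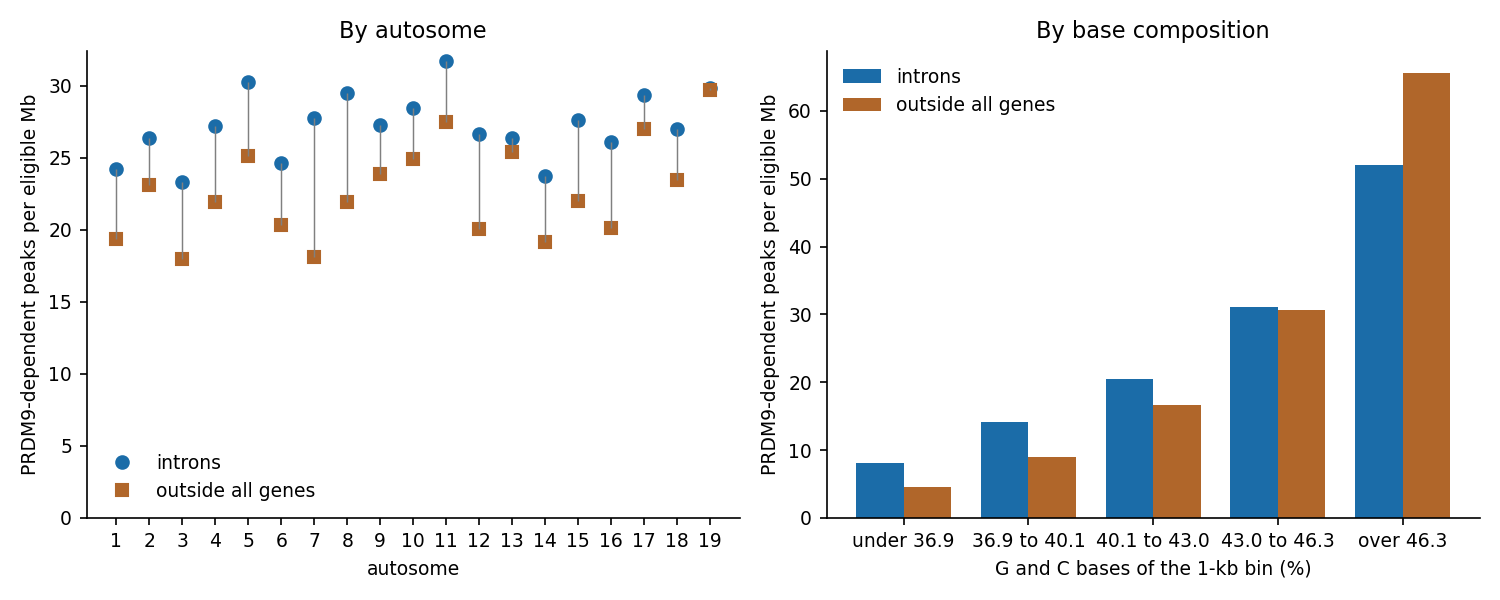
Left, PRDM9-dependent peaks per eligible Mb on each of the 19 autosomes, in introns (circles) and outside all genes (squares). Right, the same density over all autosomes in 5 classes of GC content of 1-kb bins, where introns are denser in the poorest classes (8.10 against 4.58 per Mb) and less dense in the richest (52.1 against 65.6).

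The members themselves lay in sequence richer in G and C than their surroundings. Within 150 bp of the centre their median GC content was 48.8%, against 44.4% in windows of the same length 3 kb away. Against peaks outside genes the mean was lower by 0.430 ± 0.659 percentage points and above it on 4 of 19 autosomes only (exact signed-rank test, adjusted p = 0.0148). Counted within 500 bp the difference was -0.0267 points and was no longer significant (adjusted p = 0.74 by the exact test). Repeats masked by the reference covered 21.5% of the 301 bases around a member on average and 25.9% around a peak outside genes. There were 4.43 CpG dinucleotides in such a window in members, and 5.34 outside genes.

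Intronic peaks were slightly stronger and wider than those outside genes, and stronger than those in exons. The mean log2 enrichment of the members exceeded that of peaks outside genes by 0.060 ± 0.060 over 19 autosomes, which is 1.04-fold, and it was higher on 16 of them, chromosomes 5, 7 and 8 being the exceptions (exact signed-rank test, adjusted p = 7.84e-04). Per autosome it was 1.49 to 1.72 in introns and 1.45 to 1.65 outside genes, so the ranges overlapped. Among peaks with a deposited p-value under 1e-10 the difference was 0.09, on 17 of 19. It was 0.047 without peaks whose broad peak overlaps a PRDM9-independent region (adjusted p = 0.0061, exact test). Without broad peaks over 20 kb it was 0.044 (adjusted p = 0.0082, exact test). Over the 7 alternative settings the difference ran from 0.044 to 0.091. Against the 4033 peaks in exons of protein-coding genes the difference was 0.33 ± 0.09, or 1.26-fold, and positive on 19 of 19 autosomes (adjusted p = 1.53e-05, exact test). Exonic peaks had a median of 19 and 22 ChIP fragments, above the 15 and 17 of the members, but also 9 input fragments against 6. With at least 5 input fragments required, the difference from exons was 0.15, and it kept its direction on 17 of 19 autosomes (adjusted p = 4.58e-05 by the exact test). In single libraries, measured as log2 of ChIP over input fragments with 1 added to each, it was 0.25 without replicate 1 and 0.21 without replicate 2. Exons were the denser sequence, with 56.3 peaks per Mb of 71.6 eligible Mb. This density was not standardised over GC classes. Within 150 bp of the centre exonic peaks had a median GC content of 53.8%, against 48.8% for the members.

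In all 21788 members (96.1%) lay in a deposited broad peak, with a median width of 900 bp against 800 bp outside genes. The mean log2 width was higher by 0.18 ± 0.20 over 19 autosomes (1.13-fold, 17 of 19 autosomes, exact signed-rank test, adjusted p = 0.0038). The exceptions were chromosomes 14 and 17. It was 0.08 without members and peaks whose broad peak overlaps a PRDM9-independent region (19 of 19 autosomes, adjusted p = 1.14e-05 by the exact test) and 0.10 without broad peaks over 20 kb (adjusted p = 9.16e-05).

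A set of members stood in rows inside wide H3K4me3 domains. There were 43 broad peaks over 20 kb that held members, and 41 of them overlapped a PRDM9-independent region elsewhere along their length. They held 483 members (2.13%), against 0.726% of the peaks outside genes. The one with most members, 42, covered chr1:136845401-136954200 in Nr5a2, a nuclear receptor gene. These had medians of 12 and 19 ChIP fragments and 4 in the input. In a domain of 101700 bp in Fbxw11, which encodes an F-box protein, 37 members had medians of 14, 12 and 4. In Ank, a pyrophosphate transporter gene, and the neighbouring Otulin, 32 members of 1 domain of 91700 bp had medians of 77, 84 and 8. In Tmem135 a domain of 60300 bp held 27 members with medians of 66, 59 and 2.

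In the wide domains a Cast motif was called at 9 of 483 members (1.86%), near the 1.03% of the windows 3 kb from members. Over all members, with or without a Hum motif, it was called at 11.7%, and over those whose broad peak overlapped a PRDM9-independent region at 7.27%. The median enrichment in the wide domains was 6.07, against 2.85 over all members. The rule reads only the single base at the centre of a peak, so a centre beside a PRDM9-independent region is kept. In total 1651 members (7.28%) lay in a broad peak that overlapped such a region, with a median width of 6700 bp against 800 bp for the others. Whether the mark at these members depends on PRDM9 was not tested.

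The 6 genes with most members were Gm20388 with 191, Fgfr2 with 78, Tmem135 with 56, Zfhx3 with 51, Camta1 with 47 and Nr5a2 with 43. Gm20388 is an annotation of 3700 kb of eligible intron that runs across other genes, and 91 of its members lie in an intron of a further gene. Fgfr2 encodes a fibroblast growth factor receptor, and its annotated body spans 2603 kb of eligible intron. Of its 78 members 40 lie in an intron of a further gene as well. The density of Gm20388 and Fgfr2 was 51.6 and 30.0 members per Mb. Zfhx3 and Camta1, both genes of transcription factors, held 52.9 and 55.7 per Mb, and in them only 1 member each lay in a broad peak that overlaps a PRDM9-independent region.

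By density the order was set by the wide domains. Among genes with at least 5 members and 100 kb of eligible intron, Nr5a2 had 401 members per Mb, Ank 338, Tmem135 227, Fnip2 226 and Gucd1 161. Leaving out members whose broad peak overlaps a PRDM9-independent region left 1 member in Nr5a2, 7 in Ank, 11 in Tmem135 and 2 in Fnip2. Gucd1 kept its 22, with medians of 7 and 7 ChIP fragments and 2 in the input, and no Cast motif was called at any of them. After that step, which was chosen with the values seen, Mob3b followed with 26 members (138 per Mb) and medians of 8, 8 and 4.5 fragments.

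Members were spread over 7852 host genes, which is 43.2% of the 18157 autosomal protein-coding genes with eligible intron. A single member lay in 3554 genes, 2 to 4 in 2980, 5 to 9 in 924 and at least 10 in 394. A host with a further protein-coding gene over the same base was found for 627 members (2.77%). The nearest other member was at a median distance of 14197 bp, and under 5 kb for 23.2%.

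In the 199 genes with at least 500 kb of eligible intron the median density was 17.8 per Mb, with 80% of the genes between 7.73 and 32.6 and a range of 0 to 55.7. Galnt13, a glycosyltransferase gene, held no member in 668 kb, and Fstl5, Kcnq5 and Iqcm held 2 each. These 4 genes, named after their values were seen, had 36.0% to 38.4% GC in their introns. Across the 199 genes density and GC content of the introns went together, with a Spearman coefficient of 0.73. Genes are no independent replicates, and they share the libraries.

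**Figure D3:**
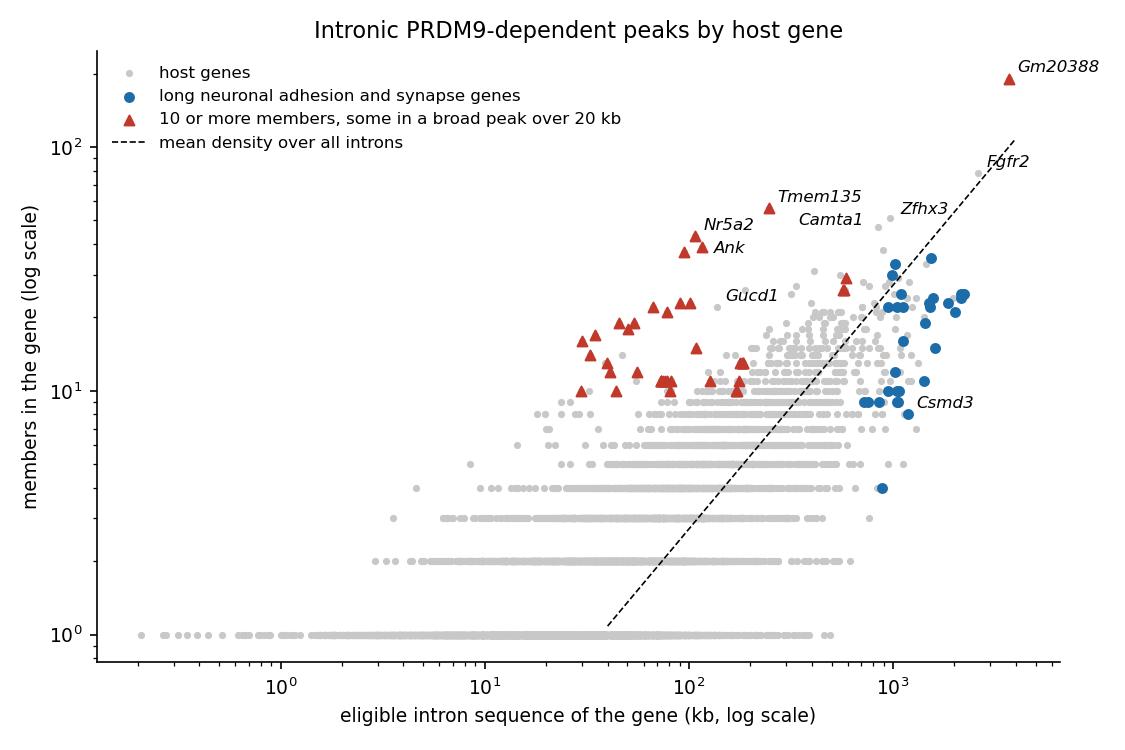
Members (y axis, log scale) against eligible intron sequence (x axis, kb, log scale) for the 7852 host genes, with the mean density of 27.1 per Mb as a dashed line. Genes with at least 10 members of which some lie in a broad peak over 20 kb (triangles) lie above it, Nr5a2 and Ank by the widest margin among those labelled, and most of the long neuronal genes (large circles) lie below it.

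The genes listed as long genes of neuronal adhesion and the synapse, many of which encode cell adhesion molecules or receptors, held members at a lower density than introns as a whole. All 30 of the listed genes held members, 536 in all, but at 13.8 per Mb of intron against 27.1 over all genes. The median over the 199 genes with at least 500 kb of eligible intron was 17.8 per Mb, so long genes in general were below 27.1. Ctnna3 held 35, Auts2 33, Cdh13 30, Dab1 25 and Lsamp 25. Within the list the density of these named genes ran from 11.5 per Mb in Lsamp to 32.3 in Auts2. The GC content of the introns was 38.9%, against 42.4% over all eligible introns, and of these Lsamp had 37.8% and Auts2 43.5%. The median enrichment of the members was 3.32 against 2.85 over all members.

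Very long genes at common fragile sites, where chromosomes break under replication stress, were also below the density of all introns. The 10 listed genes held 183 members at 17.4 per Mb and 40.1% GC, with a median enrichment of 3.20. This was close to the median of 17.8 per Mb over the 199 genes with at least 500 kb of eligible intron, so it is not particular to this list. Wwox held 38 (42.6 per Mb), Sdk1 28, Macrod2 24 and Exoc4 16. Fhit, the classic fragile gene, held 15 in 1584 kb (9.47 per Mb).

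Genes of meiosis, of histone methylation and of the PRDM family held members at densities on either side of that of all introns. Of 45 listed genes of recombination and synapsis 43 were matched, and 23 hosted 42 members (22.1 per Mb). Hsf2bp, which acts with BRCA2 in meiosis, held 5. Hormad2 (a chromosome axis protein), Ankrd31 and Mei4 (both needed for break formation) held 4 each. Zcwpw1, a reader of the PRDM9 mark, held 3. Of 28 histone lysine methyltransferase genes 18 hosted 47 members (24.7 per Mb), led by Smyd3 with 18, Ash1l with 6 and Smyd1 with 4. Of 17 genes of the PRDM family 12 hosted 58 members (29.2 per Mb), led by Mecom with 21 and Prdm16 with 10. In Prdm9 itself no member was found in 13.5 kb of eligible intron. Each of these 3 lists has under 2 Mb of eligible intron, and no test was made.

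Density fell with distance from protein-coding starts. It was 34.5 members per Mb at 2 to 5 kb from the nearest start, 31.0 at 10 to 20 kb, 24.8 at 50 to 100 kb and 16.1 beyond 200 kb. From 1 to 2 kb it was 26.3. GC content fell along with it, from 43.8% at 2 to 5 kb to 39.4% beyond 200 kb. The median enrichment moved the other way, from 2.46 at 1 to 2 kb to 2.93 beyond 200 kb. Just inside the limit of 1 kb, at 1 to 1.5 kb, 289 members had a median enrichment of 2.54, and just outside it, at 500 bp to 1 kb, 316 intronic PRDM9-dependent peaks had 2.71.

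First introns were denser than later ones. Introns were numbered on the principal transcript, and 20217 members could be placed so. Intron 1 held 5368 members in 181 Mb (29.7 per Mb) and later introns 14849 in 571 Mb. The density fell to 27.0 in intron 2 and to 25.3 in intron 6 and later. Over 19 autosomes the log2 ratio of first to later introns was 0.18 ± 0.12, a 1.13-fold difference in 18 of 19, with chromosome 18 the exception (exact signed-rank test, adjusted p = 2.29e-05). Among introns of at least 10 kb it was 0.31, and without members whose broad peak overlaps a PRDM9-independent region 0.11 (adjusted p = 0.0052, exact test). Standardised over the GC classes it was 0.13 (adjusted p = 1.07e-04, exact test).

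The strength of the peaks did not differ detectably between first and later introns. The mean log2 enrichment differed by -0.01 ± 0.08 (8 of 19 autosomes above, exact signed-rank test, adjusted p = 0.31). When broad peaks that overlap PRDM9-independent regions were left out, first introns were the weaker, by -0.05 (adjusted p = 0.0153, exact test), and without broad peaks over 20 kb they were so by -0.05 (adjusted p = 0.0282, exact test). Along genes of at least 50 kb the density was nearly flat, from 27.5 per Mb in the first 10% of the gene to 24.2 at 60 to 70% and 25.6 in the last 10%. Next to exons it was highest, with 47.2 per Mb within 100 bp of one, 28.7 at 100 to 500 bp and 17.1 beyond 50 kb. These densities by distance to an exon were not standardised over GC classes.

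**Figure D4:**
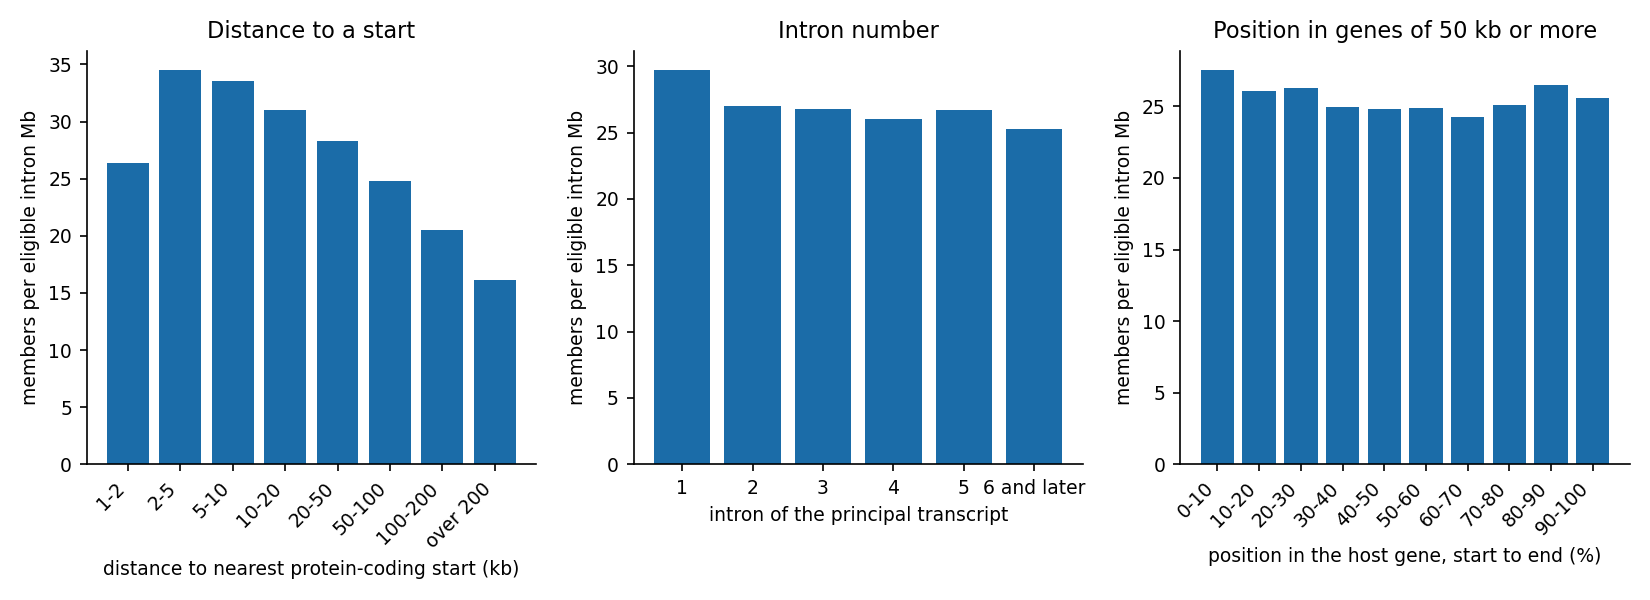
Members per eligible intron Mb by distance to the nearest protein-coding start (left, kb), by intron number on the principal transcript (middle) and by 10% steps of the host gene from its start to its end (right, genes of at least 50 kb). The density drops from 34.5 at 2 to 5 kb to 16.1 beyond 200 kb and stays between 24.2 and 27.5 along the gene.

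Genes with a marked promoter held more members than genes without. A host was called marked where a PRDM9-independent region lay within 1 kb of a protein-coding start of its own. Of the 22046 members with 1 host 20024 lay in marked genes and 2022 in unmarked ones. The log2 ratio of the densities was 0.33 ± 0.28 over 19 autosomes, or 1.25-fold, with marked hosts denser on 18 of 19 (exact signed-rank test, adjusted p = 5.75e-04). Chromosome 12 went the other way, with 26.2 members per Mb in marked and 34.9 in unmarked hosts. Standardised over the GC classes the ratio was 0.14 (adjusted p = 0.0110, exact test). The mean log2 enrichment differed by 0.04 ± 0.14 (13 of 19 autosomes, adjusted p = 0.28 by the exact test), so that no difference in strength was detected.

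A Cast motif was more common than a Hum motif at the members, and peaks with a Cast motif were stronger. A Cast motif alone was called at 2625 members (11.6%), and a Hum motif alone at 753 (3.32%). There were 21 members with both motifs, and 19274 (85.0%) held no motif called at this limit. In windows 3 kb from members 1.03% and 1.01% passed the same limits. The shares depend on the limit. With a looser one, passed by 5% of the distant windows, a Cast motif was called at 21.8% of the members and a Hum motif at 12.5%, with or without the other. The median ChIP fragments were 23 and 27 for members with a Cast motif only and 14 and 16 for those with a Hum motif only, with 6 and 5 in the input. The mean log2 enrichment was higher with the Cast motif by 0.39 ± 0.23 over 19 autosomes, or 1.31-fold, and on 17 of 19, chromosomes 3 and 19 being the exceptions (exact signed-rank test, adjusted p = 4.58e-05). With motifs searched within 150 bp only, it was 0.21, on 16 of 19. With the limit of 5% the difference was 0.28 (19 of 19), and with a limit of 0.1% it was 0.57 (18 of 19). Masked repeats covered 18.1% of the windows with a Cast motif and 33.8% of those with a Hum motif. Their part in the difference was not tested.

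The share with a Cast motif rose with the strength of the peak. With the members cut by enrichment into 10 classes of nearly equal size, it was 5.69% in the lowest class, 9.52% in class 5, 15.5% in class 8 and 20.4% in the highest. The share with a Hum motif stayed between 2.34% and 4.54%. The median input fell from 11 fragments in the lowest class to 2 in the highest, so the ranking moves with the input too.

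Members held a Cast motif more often than peaks outside genes, with 11.7% against 9.42% over all autosomes together. Per autosome the difference was 2.14 ± 1.47 percentage points, positive on 18 of 19 with chromosome 7 the exception (exact signed-rank test, adjusted p = 5.34e-05). With motifs searched within 150 bp only, the difference was 1.09 points (16 of 19), and with a looser limit, passed by 5% of the distant windows, 3.97 points (19 of 19). With a stricter limit, passed by 0.1% of the distant windows, it was 0.347 points and missed the threshold (adjusted p = 0.0535, exact test).

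The peak centre stood beside the Cast motif more often than the middle of windows 3 kb away did, by a modest margin. The middle of the Cast motif lay at a median of 150 bp (149.5) from the centre, with quartiles of 87 and 200 bp. In bins of 25 bp along the motif, the most members (201) had the centre 175 to 200 bp before it, 147 had it 125 to 150 bp after it, and only 81 had it 0 to 25 bp after it. Within 50 bp to either side lay 13.6% of the centres, and at 150 to 200 bp 24.9%. With the limit of 5% these shares were 15.5% and 22.5% at members. In the windows 3 kb away in the same genes they were 18.9% and 16.8% at that limit.

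**Figure D5:**
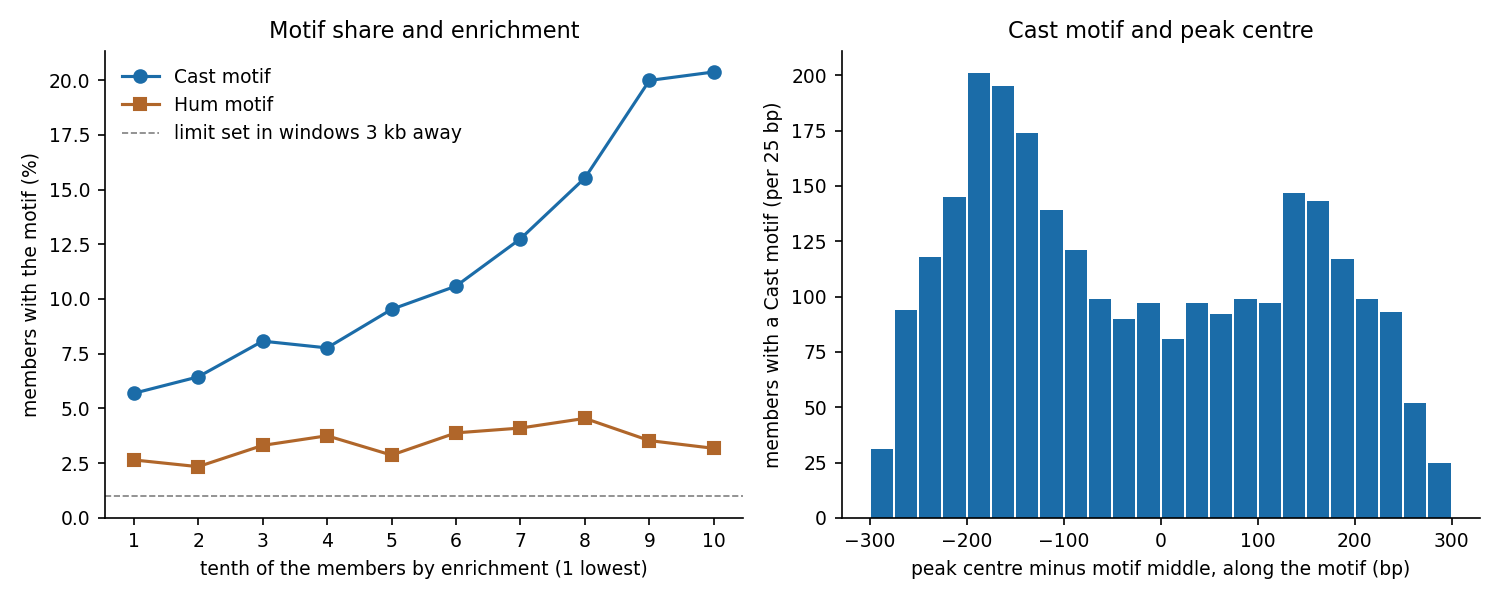
Left, percent of members with a Cast (circles) or a Hum motif (squares) in each of 10 classes of members by enrichment, with the 1% of distant windows that pass the limit as a dashed line. Right, number of members by the distance in bp from the middle of the Cast motif to the peak centre, read along the motif, with a high side near 200 bp before it and another at 125 to 175 bp after it.

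At the limit of 1% the Cast motif was found more often on the coding strand of the host gene, at members and in windows 3 kb away. Of 2601 members with a Cast motif and 1 host gene, 1539 (59.2%, exact 95% binomial interval 57.3 to 61.1) had it on the coding strand. Over 19 autosomes the share exceeded 50% by 8.80 ± 3.74 points, on all 19 (exact signed-rank test, adjusted p = 1.53e-05). Hits in windows 3 kb away in the same genes lay on the coding strand in 57.0% of 453 cases (52.3 to 61.6), and against these the share of the members was higher by only 1.59 ± 13.8 points, on 7 of 19 autosomes (adjusted p = 0.77 by the exact test). At the limit of 0.1% the excess over 50% at members was 4.63 points, on 11 of 19 autosomes, and the pooled shares were 56.4% of 571 hits at members and 40.9% of 44 in the distant windows (26.3 to 56.8). At the limit of 5%, with the most distant hits, the pooled shares were alike. They were 59.3% of 4830 hits at members and 59.8% of 2211 in the distant windows (57.8 to 61.9). The Hum motif had 63.6% of 753 hits on the coding strand at members and 60.3% of 433 in the distant windows. The coding strand of the members held 27.0% T and 24.4% A, and that of the distant windows 29.0% T and 26.5% A. The median enrichment was 4.46 where the Cast motif lay on the coding strand and 4.35 where it lay on the other strand.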

How the data were processed

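H3K4me3 ChIP-seq was measured in 2 ChIP libraries and 1 input library of testis. Per the study's methods the authors mapped read pairs to mm10 with BWA and Stampy, removed duplicates and improper pairs, and called peaks on both replicates jointly with a likelihood ratio test against the input (p under 1e-6). The deposited counts are fragments over the 1 bp centre of each narrow peak, not scaled to depth. The deposited enrichment is a ratio (fold over local background with 0 for none, maximum likelihood, both replicates together), and the deposited p-value comes from that test. Since the peaks were called jointly, there are no peak sets per replicate. Broad peaks (adjacent enriched bins of 100 bp) and PRDM9-independent regions were deposited as positions. Library totals beyond the peak centres were not used here, so the ChIP counts and the input counts are not on 1 scale of depth. Low counts limit single weak peaks, and binomial intervals cover counting error only.

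The members, gene lists and tests were chosen with earlier results of these data known. Density is peaks per eligible Mb of non-N sequence. Values are means ± SD of per-autosome differences, tested by an exact two-sided Wilcoxon signed-rank test over 19 autosomes, with Benjamini-Hochberg adjustment over 12 tests and a threshold of 0.05. Mean log2 enrichment was compared without a pseudocount. For single replicates log2((ChIP + 1)/(input + 1)) was used. Intron sequence came from GENCODE vM21 and the RefSeq copy of GRCm38, in which soft-masked bases were counted as repeats. The study's motif matrices were scored on both strands against windows 3 kb away. Named were the 10 most enriched members with at least 5 input fragments and both replicates above the input (1 per gene), the 3 most enriched of all, the 6 genes with most members, the 5 densest genes with at least 5 members and 100 kb of eligible intron, up to 5 genes of each of 5 lists, and the 5 strongest members with either motif alone (chromosome 18 left out). Others named were chosen after their values were seen. Of the 45 listed meiotic genes 4 were matched by another symbol, and of the 2 others left out 1 is a second name of a listed gene and 1 had no match. Density, level and motif steps were tested on simulated data. The tools were scipy 1.17.1, numba 0.67.0, matplotlib 3.10.9, pandas 2.3.3 and numpy 2.4.6 under Python 3.11.15. Alternatives covered the p-value and input minimum, the distance to starts, the overlap with PRDM9-independent regions, GC classes, motif windows and limits, and each replicate left out in turn among the jointly called peaks. Those on broad peaks over 20 kb, on GC in first introns and on distant motif windows were added after seeing the data.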

Additional observations from a re-analysis of the deposited data

How the results depend on the processing

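The 12 results were recomputed under 90 alternative settings, and 84 kept their direction and their side of the threshold. For 7 results every setting did so. The excess of density in introns over sequence outside genes turned to -0.0018 (log2) when standardised over 5 GC classes (adjusted p = 0.98, exact test), and was 0.25 to 0.28 under the other settings tried. The lower GC content of members was -0.0267 points within 500 bp and no longer significant. The difference in strength between first and later introns became significant when broad peaks that overlap PRDM9-independent regions were left out (-0.0543) and, as an alternative added after seeing the data, without broad peaks over 20 kb (-0.0452). The excess of Cast motifs in introns missed the threshold with the limit of 0.1% (0.347 points, adjusted p = 0.0535, exact test). The excess of Cast motifs on the coding strand fell to 1.59 points against windows 3 kb away (added after seeing the data, adjusted p = 0.77, exact test). The causes of these changes were not tested, beyond the fact that each setting alters the peaks or the comparison as named. Values without replicate 1 or without replicate 2 kept direction and call for the results for which they were computed. For density, width, motif share and motif strand, this step only dropped peaks at which the remaining replicate was not above the input. It kept 21680 members without replicate 1 and 20707 without replicate 2 in the density comparison with sequence outside genes. The peaks stayed joint calls of both libraries, so the step cannot show what 1 library alone would give. The GC test, which uses no library values, was not recomputed so. No paired analysis was possible because the ChIP and input groups share only replicate number 1 and no groups of samples were compared.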
